A study of Sus scrofa with 48 samples.

Results

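A set of 10 genes of the hepatic defence against reactive oxygen were followed in the liver of growing pigs: the superoxide dismutases SOD1 and SOD2, catalase (CAT), the glutathione peroxidases GPX1, GPX3 and GPX4, the peroxiredoxins PRDX1, PRDX3 and PRDX6, and the paraoxonase PON2. A probe belonged to the set when its gene name on the array was one of these symbols, or when its transcript accession was paired with one of them in the reference gene table. The rule gave 72 probes of 60305, and all 72 were among the 45236 probes tested. By gene, the set is 10 of the 10631 named genes with a tested probe. PON2 was chosen by a measured value, since it was lower in the line in which its neighbour PON3 was higher, so the values of PON2 between lines are given below as a description without any test. The rule used no measured value of the other 9 genes, but the set was chosen with earlier results of these data known.

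Liver RNA came from 48 castrated male Large White pigs of lines divergently selected over 8 generations for residual feed intake (RFI), the part of feed intake that growth and body fat do not account for. Pigs from the low RFI line (RFIneg) are the more efficient ones, and pigs from the high RFI line (RFIpl) the less efficient ones. From 74 days of age, 12 pigs of each line received a diet high in fat and fibre (HF) and 12 a diet low in fat and fibre (LF), and all were killed 2 hours after a meal. There was no unselected line, so that a gene described as lower in the low RFI line could equally be described as higher in the high RFI line. Each pig is from 1 of only 2 selected lines, and family relations within a line are not given in the labels. Each liver was hybridised to 1 array, in a single colour, with 24 pigs per line.

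Superoxide, a by-product of the respiratory chain and of many oxidases, is converted to hydrogen peroxide by superoxide dismutases, SOD1 in the cytosol and SOD2 in the mitochondrial matrix. Hydrogen peroxide is then removed by catalase in peroxisomes, by the selenium-containing glutathione peroxidases, and by the peroxiredoxins, which draw their electrons from thioredoxin or, for PRDX6, from glutathione. The liver is rich in all these enzymes. PON2 is the intracellular member of the paraoxonases, lactone-hydrolysing enzymes with an antioxidant action, whereas PON1 and PON3 are secreted by the liver and travel on high-density lipoprotein.

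All values are log2 intensities centred on the median of the tested probes of each array, so that 0 is the intensity of the median probe and a step of 1 is a doubling. A difference is given as a log2 fold-change (FC), low RFI minus high RFI or HF minus LF, and a probe is called when P was under 0.01 and FC over 1.1. Since each probe binds with its own strength, levels were compared between pigs for the same probe, never between probes. Between 65.8% and 77.2% of probes were well above background per array, 483 spots marked as outliers were left out, and no spot was saturated. The arrays filled 6 slides scanned on 2 days, with 2 pigs of each group on each slide. The 7 tested hepatocyte markers (ALB, APOA1, APOB, TTR, SERPINA1, TF and HNF4A) were well above background on 48 of 48 arrays. The same held for 71 of the 72 probes of the set, the exception being a SOD2 probe described below.

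The probes themselves show which readings are independent. Each is a designed sequence of 60 bases, printed here 5′ to 3′ as deposited. PRDX1 had the smallest P between lines of the genes that entered by name, and it was read by only 2 probes. Capitals mark the run of 45 bases that they share, so that they amount to a single stretch of transcript:
PRDX1 brighter probe: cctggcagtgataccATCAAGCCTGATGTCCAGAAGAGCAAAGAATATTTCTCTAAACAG
PRDX1 dimmer probe: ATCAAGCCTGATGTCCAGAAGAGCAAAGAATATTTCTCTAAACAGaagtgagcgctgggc

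PON2 was read by 4 probes. The brightest 2 share a run of 57 bases, and the other 2 lie apart on a PON2 transcript, at bases 366 and 695 as numbered in the array annotation. These 2 are shown because they are the PON2 probes that do not overlap the others. No PON2 probe shared more than 8 bases in a row with a tested PON1 or PON3 probe on either strand.
PON2 probe at base 366: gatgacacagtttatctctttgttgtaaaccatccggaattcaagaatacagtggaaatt
PON2 probe at base 695: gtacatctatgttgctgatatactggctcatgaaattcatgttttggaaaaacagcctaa

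GPX3 had 6 probes. One of them carries GPX3 as its name but a transcript accession that the reference table gives to CAPNS1. Aligned with a second GPX3 probe over 58 bases, it differed at 2 positions, G27A and C47A, counted from 1 at the 5′ end of that second probe. The 28 bases around them are shown, with the differing bases in capitals, to show how closely that probe, kept in the set by its name, matches a GPX3 reading:
GPX3 probe with a GPX3 accession: ttcaGttggtctgctctaacctggCctt
GPX3 probe with the other accession: ttcaAttggtctgctctaacctggActt

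SOD2 had 9 probes, of which 2 share an identical sequence and serve as a technical repeat. Their readings of the same pig differed by 0.05 on average and by 0.18 at most. The 2 SOD2 probes that departed from the others are on opposite strands, since 22 bases of the dimmest SOD2 probe are the reverse complement of a stretch of the other:
SOD2 stretch of the probe that was not called: ctgtagagagaaaataaagact
SOD2 stretch of the dimmest probe: agtctttattttctctctacag

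In liver, SOD2, GPX3 and PRDX1 were lower in low RFI pigs than in high RFI pigs, whereas SOD1, CAT, GPX1, GPX4 and PRDX6 had no called probe between lines and PRDX3 had 1 of 16. Over the 9 genes that entered by name, 16 of 68 probes were called as under-expressed in the low RFI line, against a background of 3.49% of all tested probes. One of the 16, the dimmest SOD2 probe, was above background mainly in high RFI pigs and passed the filter on low signals mainly through them. Without it, 15 of 67 were called. Over-expression was called for 1 of the 68 probes, against 3.42%. In both directions this was 25% of the 68 probes against 6.91% of all. These 68 probes are not 68 independent readings, since probes of 1 gene rise and fall together, and all 16 lower probes belonged to 3 genes. With control of the false discovery rate at 5% (Benjamini-Hochberg, P-BH), the same 16 probes passed, against 3.93% of all tested probes. Over the probes of highest intensity of the 9 genes, PON2 left out, the median log2 FC was -0.05, that of SOD1, beside 0.01 over all tested probes. SOD2 and GPX3, with 8 and 6 of the 16 lower probes, are also among the genes that the study listed for oxidative stress from these same pigs. Their direction is therefore no independent evidence. The set was chosen with such results known, so the share of probes called is a description and not a test of the set.

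**Figure D1:**
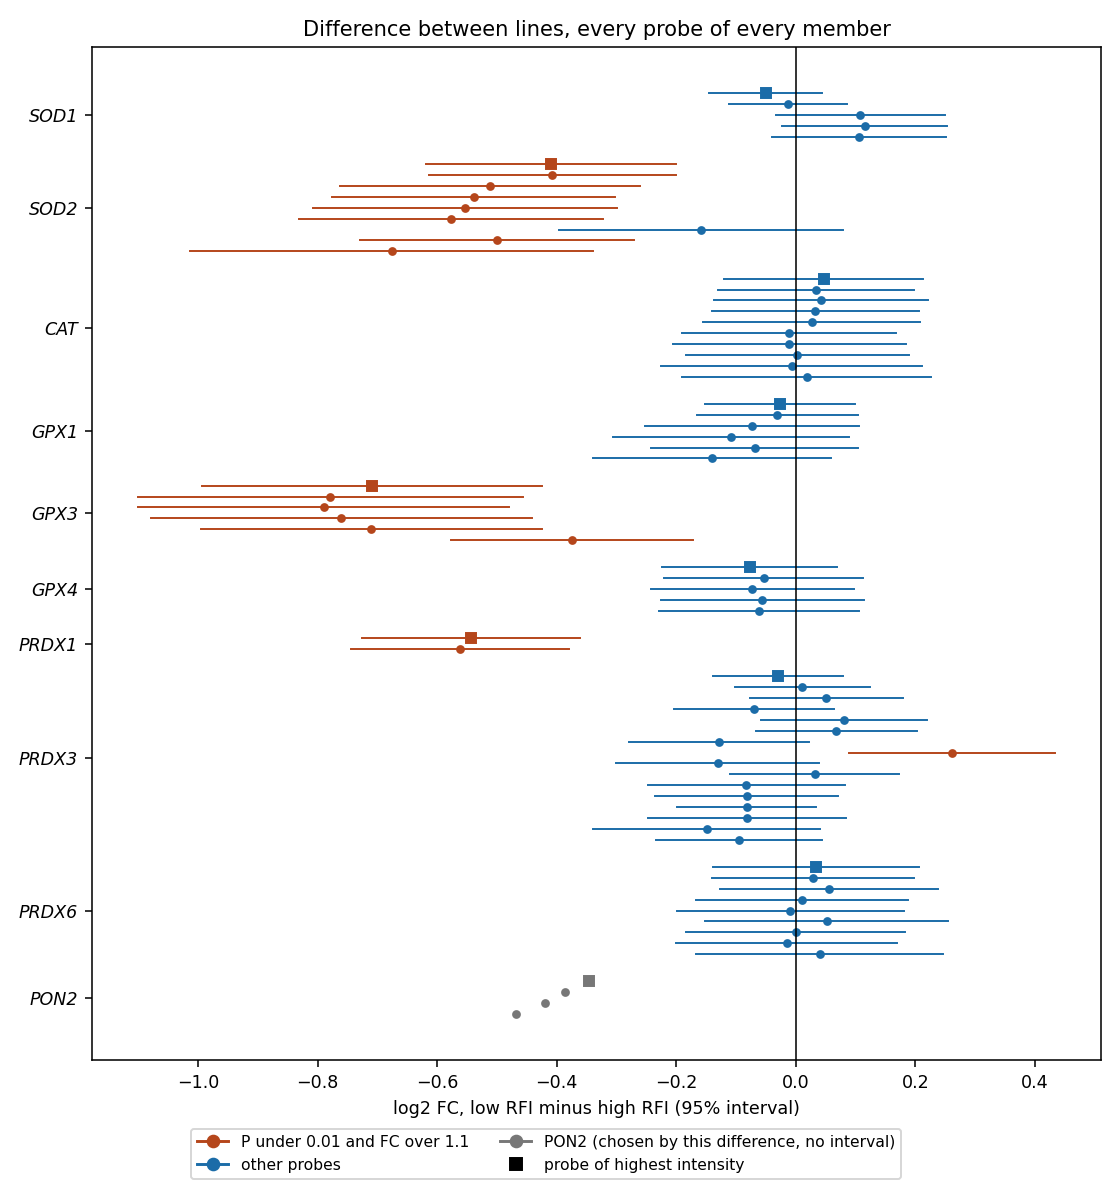
Log2 FC between lines (x axis, low RFI minus high RFI) of each of the 72 probes, grouped by gene, with 95% intervals from limma, squares for the probe of highest intensity of each gene, and PON2 in grey without intervals because it was chosen by this difference. Every probe of SOD2, GPX3 and PRDX1 lies to the left of 0, with the interval of 1 SOD2 probe reaching across it, whereas the intervals of SOD1, CAT, GPX1, GPX4 and PRDX6 all include 0.

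SOD2, the mitochondrial superoxide dismutase, was lower in the low RFI line with both diets. On its brightest probe, intensities of low RFI pigs ran from 4.17 over a median of 4.44 to 5.07 with the HF diet, and from 3.80 over 4.66 to 5.26 with the LF diet. In the high RFI line they ran from 4.15 over 4.96 to 5.36 with HF and from 4.11 over 4.99 to 5.47 with LF. The ranges thus overlapped, but 22 of 24 low RFI pigs fell under the high RFI median. The means were 4.56 ± 0.37 (SD, n = 24) and 4.97 ± 0.35 (SD, n = 24), a log2 FC of -0.41 (95% interval -0.62 to -0.20, P-BH = 0.0126 in limma), or 1.33-fold. Over the 8 probes well above background in every pig, log2 FC ran from -0.58 to -0.16 and 7 were called.

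The SOD2 probe that was not called, although well above background in every pig, gave -0.16 (95% interval -0.40 to 0.08, P-BH = 0.611 in limma). The dimmest probe, whose stretch on the opposite strand is given above, is set apart from these, with -0.68. Only 3 of 24 low RFI pigs and 10 of 24 high RFI pigs had it well above background, so that its FC rests largely on readings near the background and is not counted as support. The 7 called probes lay between -0.58 and -0.41.

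SOD1, the cytosolic copper-zinc enzyme, had 5 probes and none was called between lines. Its brightest probe ran from 8.72 to 9.16 in the low RFI line (median 9.01) and from 8.58 to 9.38 in the high RFI line (median 9.05). The log2 FC was -0.05 with a 95% interval of -0.15 to 0.04, while the 3 probes of a second SOD1 transcript had values of 0.11 to 0.12. The sign for SOD1 therefore depended on the probe, and a difference above 1.1-fold in the lower direction lay just inside the interval of the brightest probe.

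CAT, the peroxisomal catalase, had 10 probes, none of them called, with log2 FC between -0.01 and 0.05. On its brightest probe, the values ran from 9.11 over a median of 9.64 to 9.97 in the low RFI line and from 8.84 over 9.63 to 9.99 in the high RFI line. The log2 FC of 0.05 had a 95% interval of -0.12 to 0.21. The medians of both lines were thus nearly equal, and the lowest readings came from the high RFI line.

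Among the glutathione peroxidases, GPX3 alone had called probes, and its difference was the widest of the set. GPX3 encodes the secreted peroxidase found in plasma. In the low RFI line its brightest probe ran from 5.20 over a median of 5.96 to 6.86 with HF and from 4.84 over 6.26 to 6.72 with LF. In the high RFI line the values ran from 5.85 over 6.88 to 7.69 with HF and from 5.93 over 6.72 to 8.11 with LF. The lines overlapped between 5.85 and 6.86, yet 23 of 24 low RFI pigs lay under the high RFI median. The means were 6.07 ± 0.49 (SD, n = 24) and 6.78 ± 0.50 (SD, n = 24), a log2 FC of -0.71 (95% interval -0.99 to -0.43, P-BH = 0.00103 in limma), or 1.64-fold.

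All 6 GPX3 probes were called as under-expressed. The probe with the accession of another gene had a log2 FC of -0.78, and the GPX3 probe aligned with it had -0.79. The dimmest probe, annotated with a protein entry in place of a transcript, had the smallest value at -0.37 (P-BH = 0.0203 in limma). The strand that it reads was not tested, so it is not counted as a further reading of the GPX3 transcript.

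GPX1, the abundant cytosolic and mitochondrial peroxidase, and GPX4, which reduces lipid peroxides within membranes, had no called probe among 6 and 5. The brightest GPX1 probe ran from 8.19 to 9.10 in the low RFI line and from 8.10 to 9.04 in the high RFI line, with medians of 8.58 and 8.59. Its log2 FC was -0.03 (95% interval -0.15 to 0.10). For GPX4 the brightest probe ran from 5.29 to 6.22 and from 5.28 to 6.47, with medians of 5.82 and 5.93. Its log2 FC was -0.08 (95% interval -0.22 to 0.07), and the values of the low RFI line lay within the range of the high RFI line.

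PRDX1, the major cytosolic peroxiredoxin, had the smallest P of the genes that entered by name. In the low RFI line, its brighter probe ran from 5.03 over a median of 5.40 to 6.04 with HF and from 4.72 over 5.12 to 5.71 with LF. In the high RFI line, it ran from 5.42 over 5.91 to 6.49 with HF and from 5.18 over 5.81 to 6.47 with LF. Of the low RFI pigs, 23 of 24 were under the high RFI median, and of the high RFI pigs, 23 of 24 were over the low RFI median. The means were 5.29 ± 0.32 (SD, n = 24) and 5.84 ± 0.33 (SD, n = 24), with a log2 FC of -0.54 (95% interval -0.73 to -0.36, P-BH = 0.000104 in limma), or 1.46-fold. The other probe, which overlaps it, gave -0.56. No PRDX1 probe shared more than 11 bases in a row with a tested PRDX2 probe, or more than 9 with a PRDX3 probe.

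PRDX3, the mitochondrial peroxiredoxin that shares its compartment with SOD2, was read by 16 probes along its transcript, and 15 of them were not called. On its brightest probe the low RFI line ran from 6.53 over a median of 6.80 to 7.19 and the high RFI line from 6.41 over 6.87 to 7.17, with a log2 FC of -0.03 (95% interval -0.14 to 0.08). The exception was the probe at base 1052 of the transcript, which ran from 4.33 over a median of 4.98 to 5.43 in the low RFI line and from 4.05 over 4.76 to 5.11 in the high RFI line. This amounted to 0.26 on the log2 scale (95% interval 0.09 to 0.43, P-BH = 0.0745 in limma), and 18 of 24 low RFI pigs lay over the high RFI median. Its neighbours at bases 964 and 1109 had values of -0.13 and 0.07. The other 15 probes lay between -0.15 and 0.08, so that this difference belonged to a single place on the transcript and did not pass the false discovery rate of 5%.

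PRDX6, the peroxiredoxin that also handles oxidised phospholipids, had 9 probes and no call between lines, with log2 FC from -0.02 to 0.06. Its brightest probe ran from 6.21 over 6.77 to 7.13 in the low RFI line and from 6.03 over 6.82 to 7.19 in the high RFI line. The 95% interval of its log2 FC was -0.14 to 0.21.

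**Figure D2:**
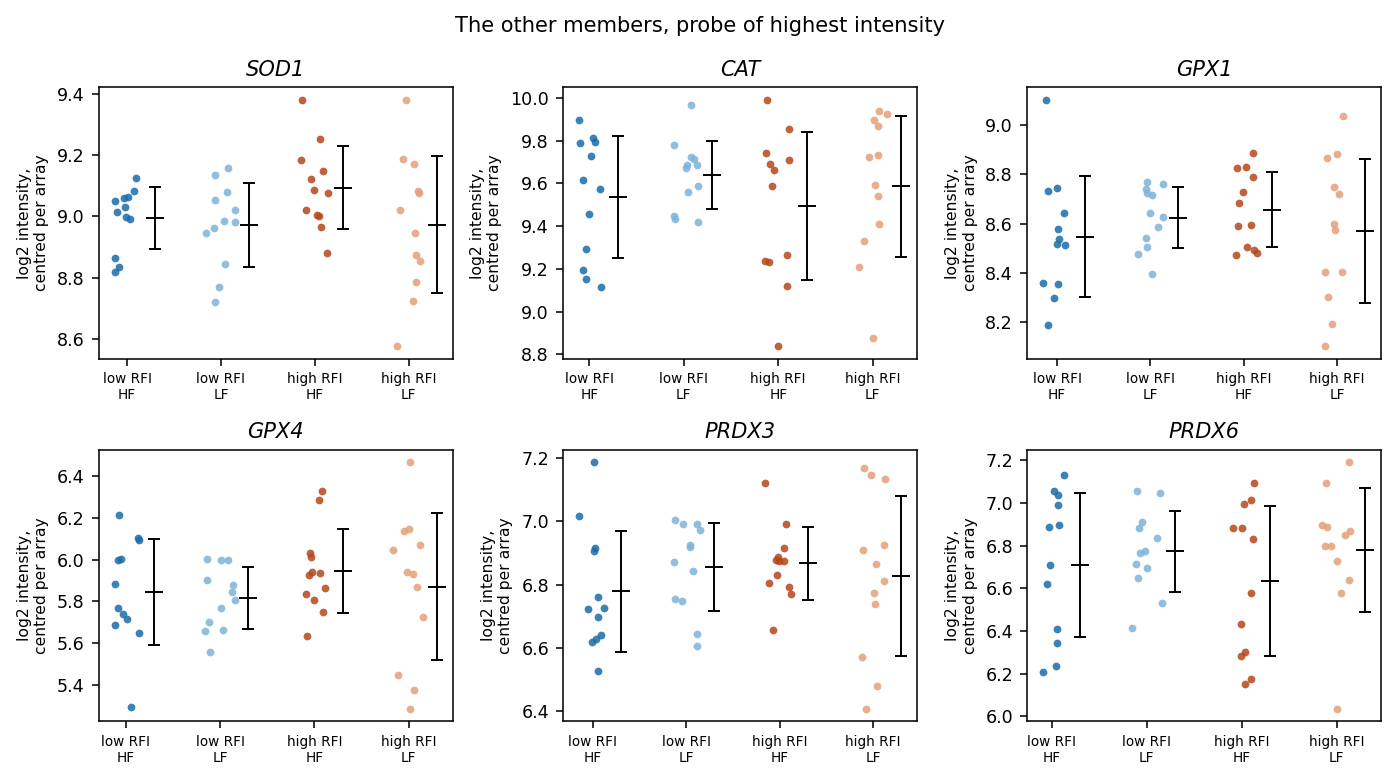
Centred log2 intensity (y axes) of the brightest probe of SOD1, CAT, GPX1, GPX4, PRDX3 and PRDX6 in each pig, by line and diet, with the mean and SD of 12 pigs beside each group. The 4 groups overlap in every panel, and the lowest SOD1 and PRDX6 readings, 8.58 and 6.03, are both from high RFI pigs with the LF diet.

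PON2 was lower in the low RFI line, the property for which it was chosen. The brightest PON2 probe ran from 5.76 over a median of 6.10 to 6.26 in the low RFI line with HF and from 5.34 over 5.93 to 6.64 with LF. In the high RFI line it ran from 5.99 over 6.27 to 6.88 with HF and from 6.14 over 6.44 to 6.75 with LF. The means of the lines were 6.01 ± 0.26 (SD, n = 24) and 6.36 ± 0.25 (SD, n = 24), a log2 FC of -0.35, or 1.27-fold. The lines overlapped between 5.99 and 6.64. The other 3 probes had values of -0.39, -0.42 and -0.47, the latter 2 at bases 695 and 366 of the transcript. A probe without a gene symbol that the array annotation likens to bovine PON2, looked up after the other values were seen, averaged 0.27 ± 0.47 (SD, n = 24) in low RFI pigs against 0.95 ± 0.38 (SD, n = 24) in high RFI pigs.

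In the RefSeq gene table PON2 lies between PON3 and ASB4 on chromosome 9. The brightest probe whose accession is that of PON3, although the array names it PON1, ran from 4.12 over a median of 8.24 to 9.09 in the low RFI line and from 3.38 over 4.75 to 8.16 in the high RFI line. Of 2 probes named PON1 without a PON3 accession, the brighter had means of 6.24 ± 0.26 (SD, n = 24) and 6.41 ± 0.29 (SD, n = 24), with FC -0.16 on the log2 scale (P-BH = 0.340 in limma). The other, annotated with a protein entry in place of a transcript, went the opposite way, with means of 7.42 ± 1.0 (SD, n = 24) and 4.89 ± 1.90 (SD, n = 24), or 2.53 higher in low RFI pigs (P-BH = 0.000110 in limma), close to the 2.44 to 2.55 of the PON3 probes. The 2 probes named PON1 thus disagreed, and the second followed the PON3 probes. Its difference was 3.11 and 1.95 on the 2 scan days, beside 3.02 and 1.87 for the brightest PON3 probe. Whether it reads PON1 or PON3 was not tested, so it is not taken as a second reading of PON1. The one brighter over all pigs (mean 6.32 against 6.15) stands for PON1 below. In low RFI pigs alone, the other was brighter (7.42 against 6.24). With diet means removed, PON2 and PON1 rose and fell together over the pigs within each line. In the low RFI line Pearson's r was 0.63 (permutation P = 0.00067, two-sided, P-BH = 0.00186 over 3 relations, n = 24) and Spearman's rho 0.66 (permutation P = 0.00042, P-BH = 0.00063). In the high RFI line r was 0.62 (permutation P = 0.00124, P-BH = 0.00186, n = 24) and rho 0.74 (permutation P = 5e-05, P-BH = 0.00015). Without the 2 pigs farthest from the PON2 median, r was 0.64 and 0.60, and within scan days it was 0.68 and 0.60 in the low RFI line and 0.81 and 0.50 in the high RFI line.

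PON2 and PON3 showed no such relation in the low RFI line, where r was -0.13 (permutation P = 0.491, P-BH = 0.491, n = 24) and rho -0.26 (permutation P = 0.216, P-BH = 0.216). Without the 2 farthest pigs r was -0.12, and within scan days it was -0.37 and -0.03. In the high RFI line PON3 readings fell into separate clusters and no correlation was computed.

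**Figure D3:**
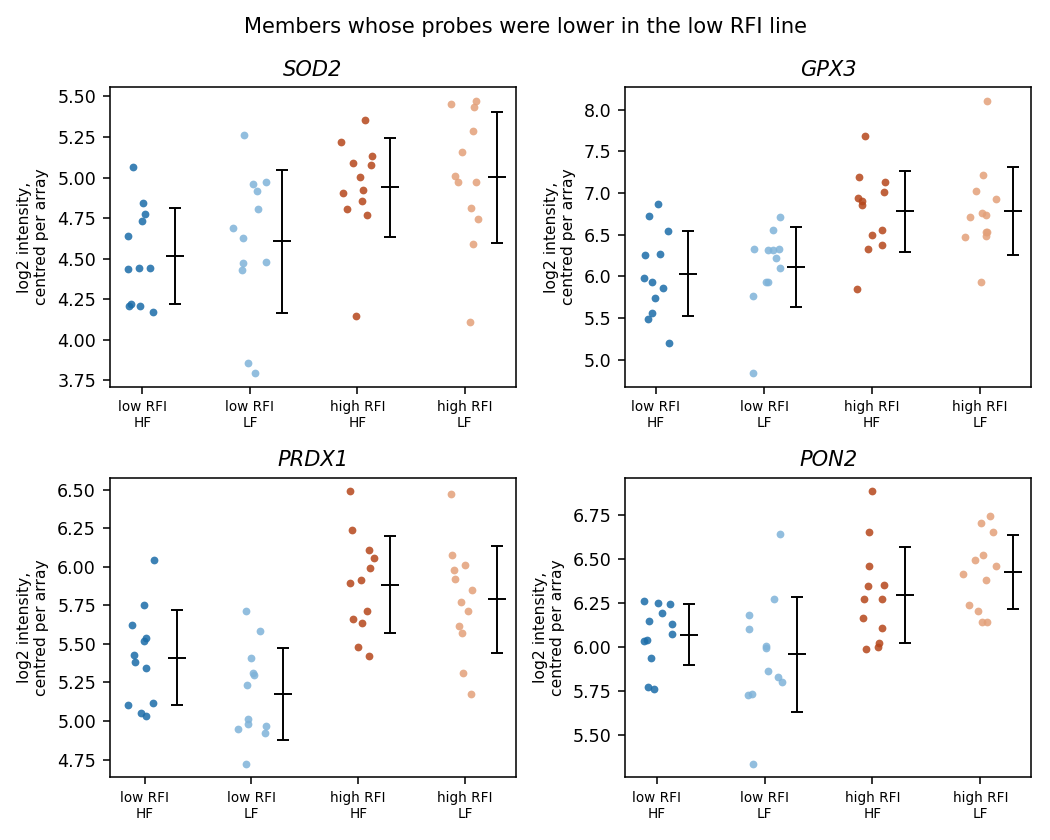
Centred log2 intensity (y axes) of the brightest probe of SOD2, GPX3, PRDX1 and PON2 in each pig, by line and diet, with the mean and SD of 12 pigs beside each group. In each panel the means of both low RFI groups lie below those of both high RFI groups, and single pigs of both lines overlap, for GPX3 between 5.85 and 6.86.

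Taken within each diet, the difference between lines was present on both diets. With the HF diet, 14 of the 68 probes of the 9 genes were called, all as lower in low RFI pigs, against 1.78% of all tested probes in that direction and 3.41% in both. They were 7 of SOD2, 5 of GPX3 and 2 of PRDX1. With the LF diet, 16 were called, again all as lower, against 2.04% in that direction and 3.84% in both. They were 8 of SOD2 (the dimmest probe among them), 6 of GPX3 and 2 of PRDX1. On the brightest probe, SOD2 had a log2 FC of -0.42 with HF and -0.39 with LF. The values for GPX3 were -0.74 and -0.67, and those for PRDX1 were -0.47 and -0.61. PON2 had -0.22 with HF and -0.47 with LF, as a description.

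The interaction tests whether the difference between lines itself differed between diets, a comparison that the choice of PON2 did not use. None of the 72 probes was called, against 0.376% of all tested probes. At an unadjusted P under 0.05, limma gave 1 probe of the 72, beside 2.37% of all tested probes, and no probe of the whole array passed P-BH of 5%. That probe was 1 of the 2 overlapping PON2 probes, with an interaction of 0.27 on the log2 scale (P = 0.0458, P-BH = 1.0 in limma). The brightest PON2 probe gave 0.24 (95% interval -0.05 to 0.54, P = 0.101), and the other 2 gave 0.24 each, so that the 4 probes had the same sign. The unnamed probe likened to PON2 gave 0.60 (P = 0.0116, P-BH = 1.0). For SOD2, GPX3 and PRDX1 the intervals ran from -0.45 to 0.39, from -0.64 to 0.50 and from -0.22 to 0.51.

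The diet effect also stands apart from the choice of PON2, and no probe of the set responded to it. None of the 72 probes was called between diets, against 4.61% of all tested probes, and 1 had an unadjusted P under 0.05 in limma, a SOD1 probe with a log2 FC of 0.14 (P = 0.0497, P-BH = 0.346), beside 14.4% of all tested probes. All 5 SOD1 probes had values above 0, between 0.07 and 0.14. PRDX1 was the gene with the next smallest P, with means of 5.65 ± 0.39 (SD, n = 24) with HF and 5.48 ± 0.45 (SD, n = 24) with LF, a log2 FC of 0.17 (95% interval -0.02 to 0.35, P-BH = 0.398). The 10 CAT probes lay between -0.17 and -0.07, and the interval of the brightest was -0.27 to 0.07. For PON2 the log2 FC was -0.01 (95% interval -0.16 to 0.14), for SOD2 -0.08 (-0.28 to 0.13) and for GPX3 -0.04 (-0.33 to 0.24). A change with diet as wide as the line difference of GPX3 or PRDX1 thus lay outside these intervals for the brightest probes of both genes.

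The 2 scan days, with 6 pigs of each group on each, allowed the differences to be computed separately. SOD2, GPX3 and PRDX1 kept their direction on both days. Their brightest probes had log2 FC of -0.41 and -0.41, -0.65 and -0.77, and -0.63 and -0.46, in this order of genes and of days. PON2, whose choice partly fixed its direction on each day, had -0.43 and -0.27. SOD1, GPX4 and PRDX3 also kept their direction, but the other 3 genes without a call on the brightest probe turned direction. PRDX6 had 0.20 on day 1 and -0.13 on day 2, CAT had 0.13 and -0.04, and GPX1 had 0.08 and -0.13. Whether these days differ was not tested, and what besides the scan separates the pigs of each day is not given in the labels.

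**Figure D4:**
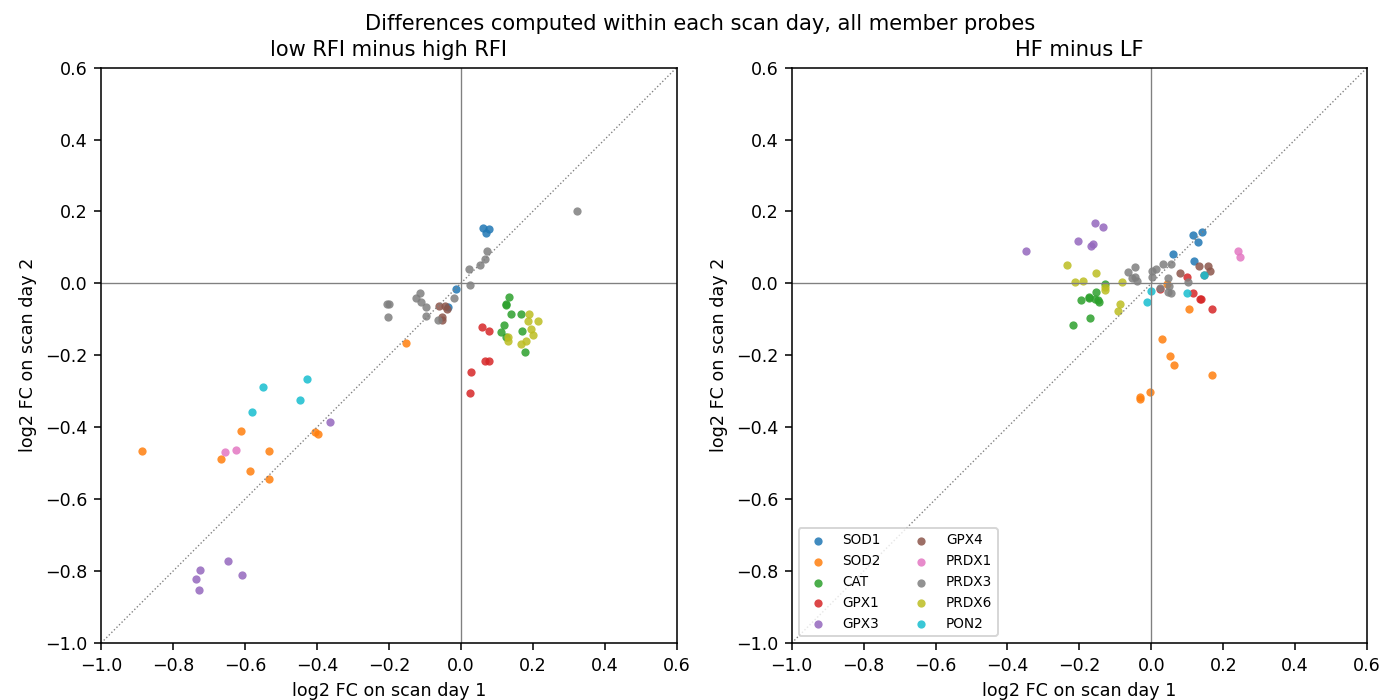
Log2 FC computed on scan day 1 (x axes) and scan day 2 (y axes) for the 72 probes, coloured by gene, for the line effect (left) and the diet effect (right), with the dotted line marking equal values. SOD2, GPX3, PRDX1 and PON2 sit in the lower left quadrant of the line panel, whereas the probes of CAT, PRDX6 and GPX1 sit to its lower right, positive on day 1 and negative on day 2.

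The genes also differed in how far single pigs departed from their group. SOD1 and PRDX3 were the steadiest, with a within-group SD of 0.16 and 0.18 on the brightest probe, beside a median of 0.28 over all tested probes, and a range of 1.75-fold and 1.72-fold over the 48 pigs. GPX3 was the most variable, with an SD of 0.50 and a range of 9.61-fold. SOD2 followed with an SD of 0.37 and a range of 3.20-fold, and then PRDX1 with 0.32 and 3.40-fold. GPX1, GPX4, PON2, CAT and PRDX6 lay between 0.21 and 0.30.

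After group means were removed, most of the genes rose and fell together over the 48 pigs, whereas SOD2 and PRDX1 had no positive pair that passed a test and PON2 had such pairs by rank only. Of the 45 pairs of brightest probes, 18 passed P-BH of 5% by a permutation test of Pearson's r, and 16 of these were positive. All 16 were among the 21 pairs of SOD1, CAT, GPX1, GPX3, GPX4, PRDX3 and PRDX6. GPX1 and GPX4 had the highest r, at 0.81 (rho 0.78, permutation P = 1e-05 for each, the smallest that 100000 resamples were allowed to give, P-BH = 9e-05), and r was 0.79 without the 2 farthest pigs. CAT and PRDX6 followed at 0.80 (rho 0.75, permutation P = 1e-05 for each, P-BH = 9e-05), with 0.76 without those pigs. Within scan days r was 0.87 and 0.74 for the first pair and 0.75 and 0.83 for the second. No GPX1 probe shared more than 9 bases in a row with a GPX4 probe.

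The same relations were also computed within each line, as a description. Among the 21 pairs of those 7 genes, r was higher in the high RFI line for 20, and over all 45 pairs for 33. GPX1 and GPX4 had 0.72 in the low RFI line and 0.87 in the high RFI line, and CAT and PRDX6 had 0.70 and 0.86. Other pairs were near 0 in the low RFI line, such as SOD1 and GPX1 (-0.04 against 0.67), GPX1 and GPX3 (-0.10 against 0.59), GPX3 and GPX4 (-0.02 against 0.49) and GPX1 and PRDX3 (0.10 against 0.63). Whether r differs between lines was not tested, and the pooled values should not be read as holding in each line.

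GPX3, lower in the low RFI line like SOD2 and PRDX1, was tied over pigs to CAT (r = 0.56, rho 0.55, permutation P = 3e-05 and 7e-05, P-BH = 0.000193 for r) and to PRDX3 (r = 0.56, rho 0.51, permutation P = 7e-05 and 0.00028, P-BH = 0.000394 for r). Without the 2 farthest pigs these were 0.53 and 0.48, and within scan days 0.52 and 0.63 for CAT and 0.51 and 0.62 for PRDX3. In the low and high RFI lines r was 0.51 and 0.62 for CAT and 0.34 and 0.74 for PRDX3. With SOD2, GPX3 had an r of 0.32 (permutation P = 0.0262, P-BH = 0.0620, rho 0.22), and 0.44 and 0.07 within scan days.

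Of the 24 pairs that hold SOD2, PON2 or PRDX1, 2 passed by Pearson's r, both negative. PRDX1 had an r of -0.36 with PRDX6 (rho -0.37, permutation P = 0.0113, P-BH = 0.0317, -0.35 without the 2 farthest pigs, -0.30 and -0.44 within scan days) and of -0.35 with CAT (permutation P = 0.0139, P-BH = 0.0368, rho -0.31 with P-BH = 0.0571, -0.32 without those pigs, -0.32 and -0.39 within scan days). By Spearman's rho, 3 positive pairs of PON2 passed that did not pass by r. These were with GPX4 (rho 0.35, permutation P = 0.0154, P-BH = 0.0330, r = 0.28 with P-BH = 0.102), with PRDX3 (rho 0.34, permutation P = 0.0196, P-BH = 0.0400, r = 0.23 with P-BH = 0.173) and with SOD1 (rho 0.33, permutation P = 0.0225, P-BH = 0.0441, r = 0.22 with P-BH = 0.185). Without the 2 farthest pigs r of these pairs was 0.23, 0.17 and 0.17. Within scan days it was 0.23 and 0.34 with GPX4, 0.44 and 0.12 with PRDX3, and 0.31 and 0.18 with SOD1. Among SOD2, GPX3, PRDX1 and PON2 themselves, none of the 6 pairs passed P-BH of 5% by either measure, with r between -0.15 and 0.32. Pairs of genes shared the array of each pig, and the share of r due to the array was not tested.

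**Figure D5:**
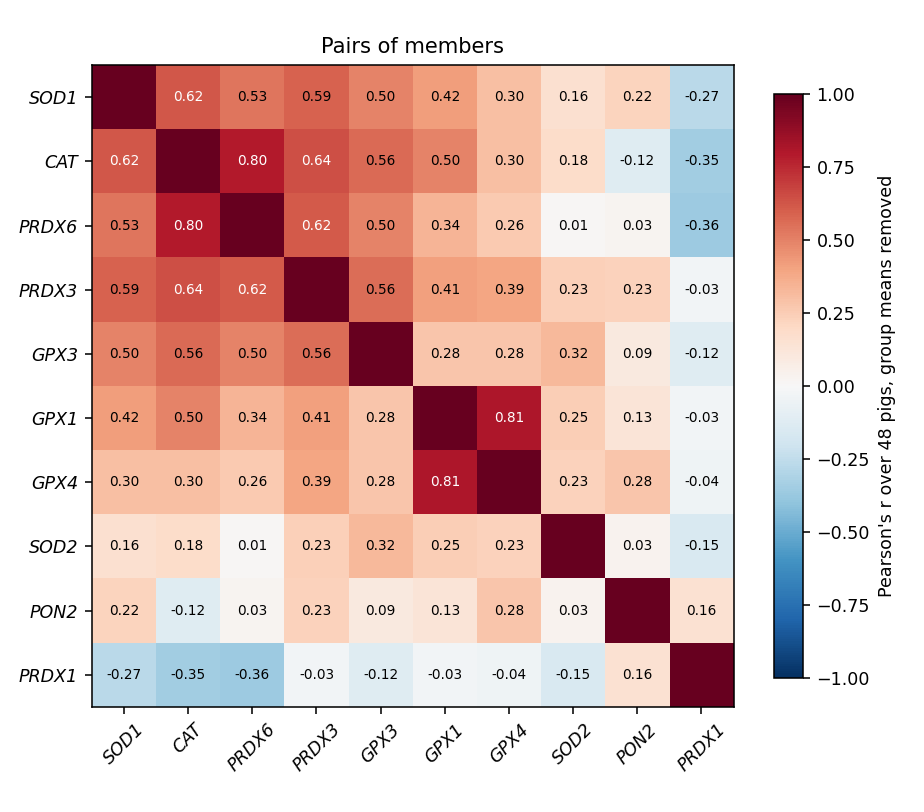
Pearson's r (colour and numbers) over 48 pigs between the brightest probes of each pair of the 10 genes, after group means were removed. The upper left block of 7 genes holds values between 0.26 and 0.81, and the rows of SOD2, PON2 and PRDX1 run from -0.36 to 0.32.

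Outside the set, the named genes whose brightest probe was most like that of each member were taken by the same measure, as a description over 48 pigs. For SOD2 these were POLB, LACTB and VMA21 (r of 0.71, 0.66 and 0.61). For GPX3 they included PDHA1 and ACHE (0.68 and 0.64), and for PRDX1 they were LEPROTL1, HN1L and NAV2 (0.79, 0.69 and 0.67). PON2 was nearest to TMEM135, SKP1 and PSMB1 (0.78, 0.77 and 0.74). None of these 11 genes passed P-BH of 5% between lines, the smallest being 0.208 for POLB. CAT was nearest to NDRG1, ADRA2A and CYP2A19 (0.85, 0.84 and 0.83), SOD1 to METTL7B, HSD17B8 and ATE1 (0.72, 0.70 and 0.69), and PRDX3 to GLO1, ATL2 and ADK (0.81, 0.80 and 0.79). The genes nearest to PRDX6 included CAT and TMEM177 (0.80 and 0.79). GPX2, another selenium-containing peroxidase, headed the list of GPX1 at 0.85, before GPX4 and SERF2 (0.81 and 0.74), and the list of GPX4 read GPX1, COX6A1 and GPX2 (0.81, 0.79 and 0.79). GPX1 and GPX2 probes shared runs of at most 11 bases.

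For the wider pathway, a gene was counted as called on its brightest probe, beside 6.91% of all tested probes called between lines. Of the other peroxiredoxin and thioredoxin genes, 13 were tested and none was called between lines, with a median log2 FC of -0.05. PRDX2, the peroxiredoxin of red cells, had -0.00, PRDX4, that of the endoplasmic reticulum, 0.05, and PRDX5, of mitochondria and peroxisomes, 0.07. Of the other glutathione peroxidase and glutathione synthesis genes, 13 were tested and none was called (median -0.07). Among them GCLC, which catalyses the rate-limiting step of glutathione synthesis, had -0.29 (P-BH = 0.303) and its modifier subunit GCLM -0.17 (P-BH = 0.218). On the brightest probe, none was called of the 3 genes that supply copper to SOD1 or the cell (CCS, ATOX1 and SLC31A1, median -0.04), of 8 symbols for selenoprotein synthesis (median 0.09, with selenoprotein P present under an older and a newer symbol), or of 10 for NRF2, the main transcription factor of the antioxidant response, and its targets (median -0.03). Some of these genes had calls on dimmer probes, which were 1 of 3 of CCS, lower in low RFI pigs, and 1 of 2 of SEPHS1 and 2 of 5 of SEPHS2, higher.

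Enzymes that produce superoxide or hydrogen peroxide gave 1 call in each direction among 15 tested (median 0.01). DAO, a peroxisomal oxidase that releases hydrogen peroxide from D-amino acids, was over-expressed in the low RFI line, with means of 5.64 ± 0.44 (SD, n = 24) and 5.12 ± 0.19 (SD, n = 24), or 0.52 higher on the log2 scale (P-BH = 0.000256 in limma), and 21 of 24 low RFI pigs over the high RFI median. NCF1, a subunit of the phagocyte oxidase, was under-expressed at -0.27 (P = 0.00579, P-BH = 0.101).

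Between diets, 2 genes of these lists were called on the brightest probe, beside 4.61% of all tested probes. NFE2L2, which encodes NRF2, was higher with HF (log2 FC 0.25, P = 0.000677, P-BH = 0.0766), in 19 of 24 pigs above the LF median. TXNRD2, the mitochondrial thioredoxin reductase, was lower with HF (-0.16, P = 0.00145, P-BH = 0.102), in 22 of 24 pigs below that median. Neither passed P-BH of 5%. MAOB, a mitochondrial amine oxidase, had 2 of 4 probes called between diets, its brightest not among them. Of the 10 macrophage markers described below, EMR1 was also called between diets, higher with HF (0.22, P = 0.00418, P-BH = 0.146), and 8 of the 10 were above 0 with a median of 0.12. Other cell types moved with diet too. All 7 hepatocyte markers (median -0.09) and all 6 erythrocyte markers (median -0.25) were below 0, and all 4 bile duct markers above 0 (median 0.26). No marker of these 3 lists was called on its brightest probe. On dimmer probes, 7 of 21 of ALB, 5 of 18 of EPCAM and 3 of 8 of LUM, a fibroblast marker, were called between diets. The part of all these cells in the diet calls was not tested.

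In whole liver, a lower share of a cell type and less RNA per cell cannot be told apart. Of 10 tested markers of resident macrophages, EMR1 was called as lower in low RFI pigs on its brightest probe, at -0.34 (P-BH = 0.00242 in limma), beside 3.49% of all tested probes. The log2 FC was below 0 for 8 of the 10, beside 47.5% of all tested probes, with a median of -0.18, and above 0 for CD14 (0.06) and CD5L (0.11). On dimmer probes, VSIG4 had 2 of 7 and C1QA 1 of 2 called as lower. All 10 were well above background on every array. Their mean level ran from 2.91 to 3.92 in the low RFI line and from 3.15 to 3.96 in the high RFI line. Of 5 neutrophil markers, CXCR2 was called (-0.20, P-BH = 0.110), and of 4 bile duct markers KRT7 (-0.35, P-BH = 0.108), whereas of 7 hepatocyte markers APOA1 was called in the other direction (0.15, P-BH = 0.121). On the brightest probe, no call was made among 7 markers of T and NK cells, 6 of erythrocytes, 7 of endothelial cells, 7 of stellate cells and fibroblasts, 4 of adipocytes or 10 genes of the acute phase response, where the median was -0.12 and SAA1 and SAA3, the serum amyloids, had -0.76 (P-BH = 0.291) and -0.71 (P-BH = 0.242). On dimmer probes, 1 of 4 of the collagen gene COL1A2 was called as higher and 1 of 18 of EPCAM, a bile duct marker, as lower. The mean level of the acute phase genes ran from 7.53 to 8.86 in the low RFI line and from 7.51 to 9.78 in the high RFI line. The part of these cells and of the acute phase response in the differences of the set was not tested.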

How the data were processed

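Total RNA of 48 pig livers was labelled with Cy3 and hybridised to custom porcine Agilent arrays. The deposited scanner files hold, per the file headers, background-subtracted intensity values (processed signals), with median intensities as an alternative. A second deposited table holds log2 values that the authors filtered on spot quality and median-centred by array (R 2.10.0 per their processing notes), and it served as an alternative here.

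Processed signals of 45236 probes, each well above background in 12 pigs or more, were put on the log2 scale, centred on each array's median and fitted with limma 3.58.1 (R 4.3.3) on the 4 groups, after the two-way design of the study. Line, diet and interaction were contrasts of that fit, and P-values were adjusted over all probes. Calls used the study's cut-offs (P under 0.01, FC over 1.1). The method was tested on simulated data. Correlations used 100000 permutations (Python 3.11.15, scipy 1.17.1).

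The text names every gene of the set, the PON2 neighbours, the 3 genes most like each member, and genes of the pathway and marker lists that passed a test. Named beyond this, after their values were seen, were the unnamed PON2-like probe, the second probe named PON1, GCLC, GCLM, CCS, SEPHS1, SEPHS2, MAOB, CD14, CD5L, VSIG4, C1QA, COL1A2, EPCAM, LUM, PRDX2, PRDX4, PRDX5, SAA1 and SAA3. Some genes of these lists are not reported here. The set and all lists were chosen with earlier results of these data known. Symbols came from the reference table by accession (7077 probes), then from the array (17000), and 36228 probes had none. The genome build behind the array annotation is not given in the sources used here. The number of arrays limits the precision of each value.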

Additional observations from a re-analysis of the deposited data

How the results depend on the processing

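Recomputed under 14 alternatives for line and diet and 13 for the interaction (test, centring, background, filters, outlier spots, slide or scan day as a block, each scan day alone, the deposited log2 values, no interaction term), the number of probes called stayed at 0 for diet and for the interaction, and between 13 and 17 of the 9 genes' probes for the line effect, the lowest being scan day 1 alone. With 24 arrays each, the scan days gave 2 and 3 probes past P-BH of 5%, against 16 with all arrays. The table of deposited values lacks the dimmest SOD2 and GPX3 probes and gave 15 calls. Log2 FC of GPX3 between lines ran from -0.77 to -0.65, of PRDX1 from -0.63 to -0.46, of SOD2 from -0.42 to -0.40 and of PON2 from -0.43 to -0.27. The SOD2 probe of highest intensity was not called on scan day 1 alone, at -0.41.

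The mean over all 9 SOD2 probes, the dimmest included, was -0.48. Signs turned only for values that were not called. Averaging a gene's probes gave 0.0530 for SOD1 between lines, 0.0136 for PRDX3 and 0.0198 for PON2 between diets, and 0.0380 for SOD2 in the interaction. Scan day 1 alone gave 0.0795 for GPX1 between lines, 0.0506 for SOD2 between diets, and in the interaction 0.0593 for SOD2, 0.19 for CAT, 0.0060 for GPX1, 0.44 for GPX3 and 0.23 for GPX4. Scan day 2 alone gave -0.0391 for CAT and -0.13 for PRDX6 between lines, -0.0144 for GPX1, 0.12 for GPX3, 0.0159 for PRDX3 and 0.0042 for PRDX6 between diets, and -0.0036 for PRDX1 and -0.13 for PRDX6 in the interaction. Between diets, quantile normalization gave 0.0044 for PRDX3 and 0.0106 for PON2, normexp 0.0163 for PRDX3 and 0.0164 for PON2, and unsubtracted median intensities 0.00096 for PRDX3. The deposited values gave 0.0030 for SOD2 in the interaction. The cause was not tested. No paired analysis was possible because the labels give every pig the same replicate number. Dim probes, such as the dimmest SOD2 one, limit what can be read.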
